A study of Mus musculus with 6 samples.

Results

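Long noncoding RNAs that stay in the nucleus or carry small RNAs were examined in mouse liver. The set has 10 genes: Malat1, Neat1, Kcnq1ot1, Meg3, Gas5, Snhg1, Snhg8, Snhg11, Epb41l4aos and Mir22hg. They were chosen by name, and they and the further gene lists below were chosen with earlier results of these data known. All 10 were found among the 55802 gene symbols of the count tables, and all 10 were among the 17662 genes with enough counts to be tested. All 6 libraries were made from liver of male C57BL/6 mice of 71 weeks. In 3 of them, called control here, the mice had normal chow, and in the other 3 the chow held PS-MP, an abbreviation that the labels do not spell out and that commonly stands for polystyrene microplastic. Sources used here give no particle size and no dose. They also do not say that each replicate was its own animal, and all p-values below therefore speak of the spread between these libraries only.

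Malat1 lies in nuclear speckles, bodies rich in splicing factors, and its 3′ end is cut by RNase P instead of being polyadenylated. Neat1, its neighbour in the genome, is the scaffold of paraspeckles and has a short polyadenylated and a long non-polyadenylated form. Kcnq1ot1 and Meg3 are imprinted: Kcnq1ot1 is made from the paternal copy and silences genes beside it, and Meg3 is made from the maternal copy of the Dlk1-Dio3 region. Gas5, Snhg1, Snhg8, Snhg11 and Epb41l4aos carry small nucleolar RNAs (snoRNAs), which guide the modification of ribosomal RNA, and Mir22hg carries the microRNA miR-22. Spliced host transcripts are in many cases destroyed by nonsense-mediated decay once they reach ribosomes.

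In the GENCODE M21 annotation of the earlier build GRCm38, 10 snoRNA genes lie within Gas5 on its strand, 8 within Snhg1, 2 within Snhg11, and 1 each within Snhg8 and Epb41l4aos. Malat1, Neat1 and Kcnq1ot1 hold 0 annotated snoRNAs or microRNAs. Of the members, Snhg11 alone is typed as protein coding in this annotation. Mir22hg holds 1 microRNA gene and Meg3 holds 2. The mature microRNAs inside Mir22hg and Meg3 (RefSeq, GRCm38.p6, plus strand) are given 5′ to 3′ with the seed, bases 2 to 8, in capitals. They share no seed.
mmu-miR-22-5p: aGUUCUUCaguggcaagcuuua
mmu-miR-22-3p: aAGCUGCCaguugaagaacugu
mmu-miR-770-5p: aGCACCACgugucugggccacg
mmu-miR-770-3p: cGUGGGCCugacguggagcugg
mmu-miR-1906: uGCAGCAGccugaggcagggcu
The arms of miR-22 lie at chr11:75463734-75463755 and chr11:75463772-75463793, those of miR-770 at chr12:109563710-109563731 and chr12:109563744-109563765, and miR-1906 at chr12:109544588-109544609.

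Transcripts of many snoRNA hosts start with a C followed by a run of C and T, the pyrimidine tract of ribosomal protein genes. RefSeq windows around the annotated starts (GRCm38.p6) were used for 8 of the 10 members, with 2 starts each for Gas5 and Meg3. Windows of 50 bases are shown for the host members other than Epb41l4aos, for which no window was used. Each window holds 20 bases before the start and 30 from it on, and the pyrimidine run that begins at the start is in capitals. For Gas5 the second start is shown, and the first begins with G and so has no such run.
Gas5: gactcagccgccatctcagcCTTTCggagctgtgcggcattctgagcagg
Snhg1: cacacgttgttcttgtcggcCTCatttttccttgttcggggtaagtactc
Snhg8: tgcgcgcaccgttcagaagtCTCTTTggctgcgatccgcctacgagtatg
Snhg11: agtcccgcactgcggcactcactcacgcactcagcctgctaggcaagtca
Mir22hg: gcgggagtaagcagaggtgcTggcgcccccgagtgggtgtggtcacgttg
They lie at chr1:161035146-161035195 (plus strand), chr19:8723467-8723516 (plus), chr3:123508307-123508356 (minus), chr2:158375693-158375742 (plus) and chr11:75461519-75461568 (plus). A C at the start with a run of at least 5 pyrimidines was found at the second start of Gas5 (run of 5) and in Snhg8 (run of 6), and in 2.51% of all 32851 windows of the table. Snhg1 starts with C and a run of 3. Snhg11 starts with A and Mir22hg with T. An annotated start can be off by some bases, so these letters describe the annotation only.

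Library totals ran from 68357478 to 112566641 counts. 18S ribosomal RNA, which carries no poly(A) tail, made up 2.92%, 11.2% and 1.15% of the control libraries and 1.14%, 0.599% and 0.387% of the exposed ones, so control replicate 2 stood apart. It stood apart too in the summed level of Rmrp, Rpph1 and Rn7sk, short RNAs without a poly(A) tail, at 202 CPM (counts relative to library size after TMM scaling, which evens out differences in library makeup) against 7.52 to 37.0 CPM in the other 5 libraries. Some library measures also did not overlap between the diets. Every control library had a larger 18S share than every PS-MP library (two-sided exact permutation p = 0.1, the smallest possible). Genes with any count numbered 23042 to 23791 in control and 24004 to 24763 with PS-MP (exact permutation p = 0.1). TMM factors were 0.891 to 0.957 in control and 1.04 to 1.11 with PS-MP. The part of these measures in the levels below was not tested. All 10 hepatocyte markers were detected, with summed levels of 72605 to 87846 CPM in control and 78774 to 96813 CPM with PS-MP.

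The label of abundant RNAs held for some members only. Divided by exon length, Malat1 stood highest, at 35.5 ± 15.0 CPM per kb (SD over 6 libraries), at percentile 93.6 of the 16818 tested genes with an annotated length. Snhg8 (23.0 ± 3.01 CPM per kb), Mir22hg (20.7 ± 6.01), Epb41l4aos (15.6 ± 2.02) and Gas5 (15.3 ± 2.18) came next, and the ranges of neighbours in this order overlapped across libraries. Snhg1 had 2.40 ± 0.380 CPM per kb, Snhg11 1.95 ± 0.833 and Neat1 1.72 ± 0.941, near the median gene at 1.33 CPM per kb. Kcnq1ot1, with 93.1 kb of annotated exon, and Meg3 were at the bottom, at 0.0699 and 0.0681 CPM per kb, or percentiles 6.37 and 6.14. Lengths are from the GENCODE annotation, which may not be the one the authors used, and they count every annotated exon, whether or not its transcript was captured by poly(A) beads. By CPM not divided by length the percentiles among all genes tested were 97.5 for Malat1, 84.6 for Neat1, 72.2 for Snhg11, 56.4 for Snhg1, 54.9 for Kcnq1ot1 and 32.0 for Meg3, so the place of the long transcripts depended on the division. In all, the 10 genes took 0.0300%, 0.0576% and 0.0265% of counts on normal chow, against 0.0358%, 0.0596% and 0.0550% on PS-MP chow, which overlap (two-sided exact permutation p = 0.3, n = 3 and 3, where 0.1 is the smallest possible). The 6 host members together took 0.0108%, 0.0148% and 0.0111% of control counts and 0.0153%, 0.0212% and 0.0160% of exposed counts, without overlap (exact permutation p = 0.1). On the TMM scale the same sums were 113, 166 and 118 CPM against 147, 191 and 149 CPM, and the groups overlapped (exact permutation p = 0.3).

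With edgeR's quasi-likelihood test and Benjamini-Hochberg adjustment over all genes, 0 of the 10 members passed an adjusted p of 0.05. Across all genes 0.0113% passed, that is 2 genes. At an unadjusted p under 0.05 there was 1 member, Meg3, where 5.38% of all genes fell under it. Meg3 was also the only member whose libraries did not overlap between the diets, which held for 11.2% of all genes. DESeq2 called 1 member, Meg3 (1.06% of all genes), and limma-voom called 0 (0.00566% of all genes; 1 member at an unadjusted p under 0.05). The log2 fold change, PS-MP minus control, was above zero for 9 of 10 members (52.8% of all genes) with a median of 0.18, against 0.02 over all genes tested.

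**Figure D1:**
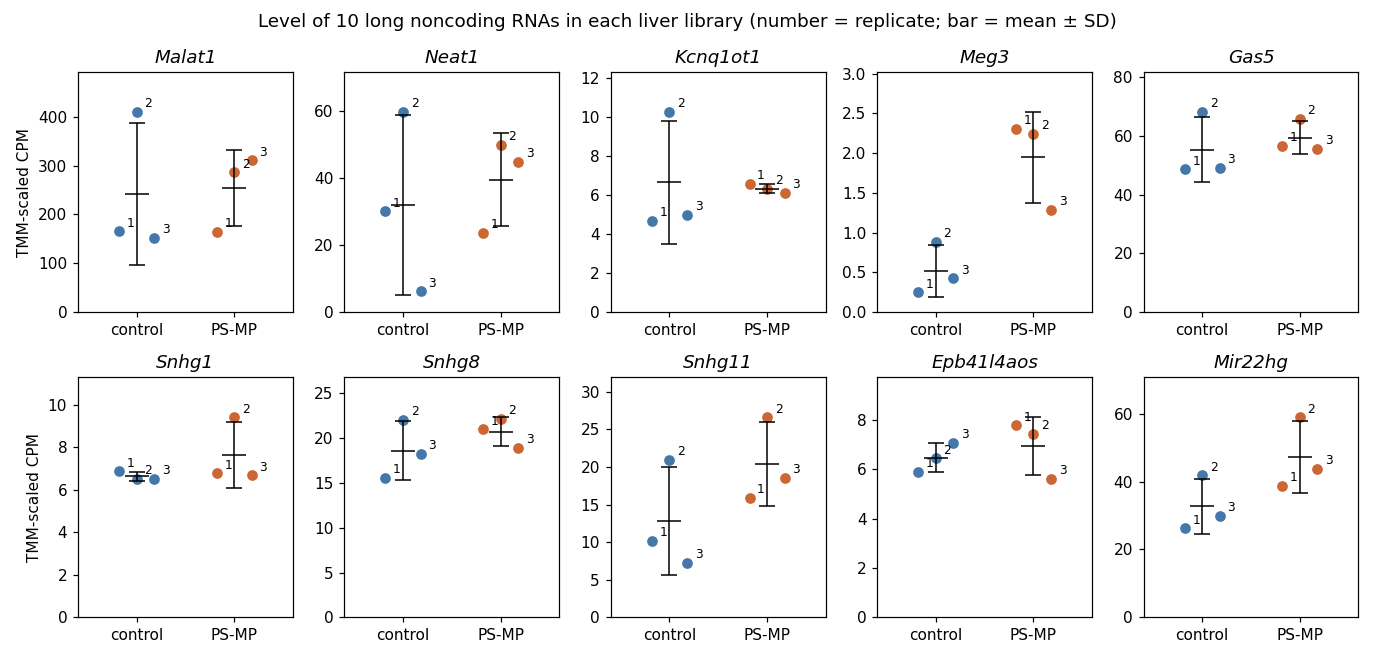
Levels of the 10 long noncoding RNAs in TMM-scaled CPM (vertical axes from 0) in 3 control and 3 PS-MP libraries; points are libraries with their replicate number, bars the mean and SD. For Meg3 all 3 PS-MP libraries, from 1.28 to 2.31, lie above the control libraries, the highest of which is at 0.887, and for the other 9 genes the groups overlap.

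Meg3 gave the largest difference of the 10. It had 18, 54 and 45 counts on normal chow, against 190, 198 and 110 counts on PS-MP chow, or 0.248, 0.887 and 0.425 CPM against 2.31, 2.24 and 1.28 CPM. Every PS-MP library was above every control library, the nearest being control replicate 2 at 0.887 CPM and PS-MP replicate 3 at 1.28 CPM. The fold was 3.76 (95% interval 1.62 to 8.75; log2 fold change 1.91, SE 0.51), with an edgeR adjusted p of 0.797 and, from DESeq2, an adjusted p of 0.0367. With any library left out the log2 fold change lay between 1.58 and 2.51 in edgeR and the adjusted p between 0.461 and 1.0.

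The large imprinted region of Meg3 also holds Rian, a host of snoRNAs and microRNAs, and Mirg, a host of microRNAs, both expressed from the maternal copy like Meg3. Rian had 14, 20 and 13 counts on normal chow, against 82, 117 and 33 on PS-MP chow, or 0.215 ± 0.105 CPM against 0.902 ± 0.477 CPM (SD, n = 3). These libraries did not overlap either (log2 fold change 2.09, SE 0.58, edgeR adjusted p = 0.805; DESeq2 adjusted p = 0.0906). Mirg had 0, 0 and 3 counts on normal chow, against 8, 3 and 5 on PS-MP chow, too few to be tested. Dlk1 and Rtl1, the protein genes of the region that are made from the paternal copy, had counts in PS-MP replicate 2 alone, 3 and 6 counts.

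The promoter of Meg3 is shown because Meg3 had the largest difference. It is the RefSeq window of the upstream one of its 2 annotated starts, chr12:109540746-109541045 (GRCm38.p6, plus strand), 250 bases before and 50 from the start on, with the cAMP response element TGACGTCA in capitals.
Meg3: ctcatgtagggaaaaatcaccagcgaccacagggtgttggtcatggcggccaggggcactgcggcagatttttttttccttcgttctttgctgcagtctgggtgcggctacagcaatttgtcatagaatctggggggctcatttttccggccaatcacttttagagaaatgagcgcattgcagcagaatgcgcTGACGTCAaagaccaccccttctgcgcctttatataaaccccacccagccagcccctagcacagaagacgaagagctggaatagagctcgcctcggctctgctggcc
This palindromic motif, which reads the same on both strands and is bound by factors of the CREB family, occurs in 1.79% of all windows of this length. It was found in 1 other window of the members, the second start of Gas5. The Meg3 window holds 13 CG dinucleotides, where the median window holds 7 and 37.9% of windows hold at least as many.

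Of all genes tested, 52.8% had a log2 fold change above zero. At an unadjusted edgeR p under 0.05, 2.8% of all genes were higher and 2.58% lower. Cell type markers gave these values beside Meg3. Kupffer and macrophage markers were above zero in 10 of 10 genes (2 at an unadjusted p under 0.05, Marco and Adgre1, and 0 past the adjusted threshold), with summed levels of 130 to 173 CPM on normal chow and 197 to 225 CPM on PS-MP chow. Sinusoidal endothelial markers overlapped (144 to 162 against 145 to 204 CPM; 9 of 10 above zero), as did stellate and fibroblast markers (347 to 354 against 278 to 374 CPM; 2 of 10 above zero). Mesothelial markers were above zero in 5 of 5 (1 at an unadjusted p under 0.05), with summed levels of 1.57 to 7.51 CPM on normal chow and 5.66 to 7.26 CPM on PS-MP chow. Neuronal markers were low, with summed levels of 1.21 to 1.97 CPM on normal chow and 1.20 to 2.55 CPM on PS-MP chow, and Snap25 and Tubb3 had 0 counts in every library. Summed levels also overlapped for lymphocyte (10.4 to 21.1 against 8.83 to 24.2 CPM; 1 of 10 higher at an unadjusted p under 0.05), cholangiocyte (12 to 26.8 against 11.3 to 21.4 CPM) and adipocyte markers (16.2 to 67.1 against 10.9 to 35.0 CPM). Of the 6 adipocyte markers 3 were tested, with a median log2 fold change of -1.68 and 2 lower at an unadjusted p under 0.05. None of the marker lists had a gene past the adjusted threshold in edgeR. The part of the Kupffer, mesothelial and adipocyte markers, and of the 18S share given above, in the Meg3 difference was not tested, and in bulk liver fewer cells of a type and less RNA per cell cannot be told apart.

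**Figure D2:**
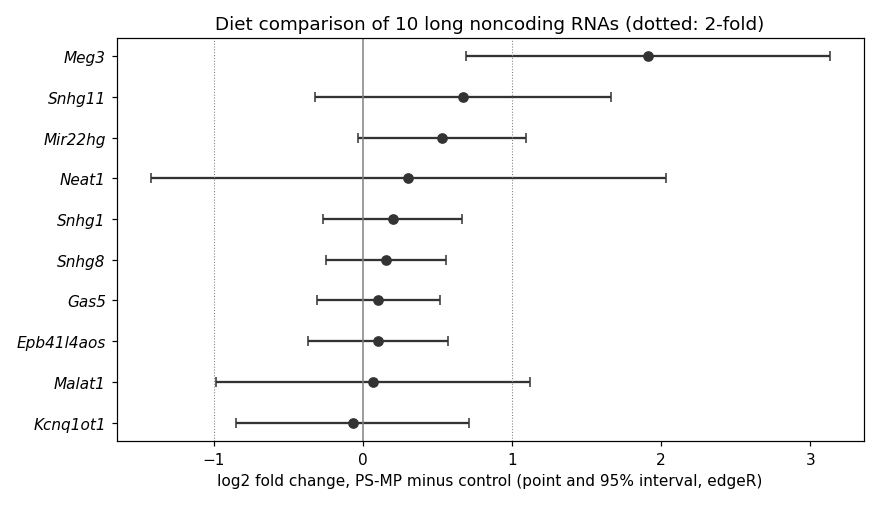
Log2 fold change (horizontal axis, PS-MP minus control, edgeR) with its 95% interval for each of the 10 genes; dotted lines mark 2-fold. The interval of Meg3, from 0.69 to 3.13, is the one that lies wholly above zero, and 5 of the 10 intervals lie inside 2-fold.

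The nuclear RNAs Malat1 and Neat1 varied more between libraries of 1 diet than between the diets. Malat1 was at 165, 410 and 152 CPM on normal chow, against 164, 286 and 311 CPM on PS-MP chow. Control replicate 2 was the highest of all and PS-MP replicate 1 was as low as the other controls. The log2 fold change was 0.07 (SE 0.44, 95% interval -0.98 to 1.12, edgeR adjusted p = 1.0), and it was 0.67 without control replicate 2. It turned below zero without control replicate 1 (-0.14) or 3 (-0.18) and without PS-MP replicate 2 (-0.03) or 3 (-0.12). The pooled SD of its log2 CPM within diets was 0.66, at percentile 92.5 among the 500 genes on either side of it in mean level.

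Neat1 was at 30.2, 59.8 and 6.27 CPM on normal chow, against 23.7, 49.9 and 45.0 CPM on PS-MP chow. Control replicate 3, the deepest library, had 663 counts where the other libraries had 1955 to 4409. The highest control library was 9.54-fold the lowest, against 2.10-fold in PS-MP. Its within-diet SD of 1.25 stood at percentile 98.8 among genes of like level, and the log2 fold change was 0.30 (SE 0.72, interval -1.42 to 2.03, edgeR adjusted p = 1.0). It was 1.12 without control replicate 2 and -0.18 without control replicate 3. Neat1 counts per Malat1 count were 0.183, 0.146 and 0.0411 on normal chow, against 0.144, 0.174 and 0.145 on PS-MP chow. These ratios overlap (two-sided exact permutation p = 0.9, n = 3 and 3), and 5 of the 6 lie between 0.144 and 0.183. Frmd8, a protein gene near Malat1 and Neat1, had a log2 fold change of -0.26 (SE 0.20, edgeR adjusted p = 1.0).

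Kcnq1ot1 was at 4.70, 10.3 and 5.01 CPM on normal chow, against 6.60, 6.32 and 6.12 CPM on PS-MP chow. The PS-MP libraries were close together, with the highest 1.08-fold the lowest, and control replicate 2 was 2.19-fold the lowest control. The log2 fold change was -0.07 (SE 0.33, interval -0.85 to 0.71, edgeR adjusted p = 1.0), and it was 0.38 without control replicate 2 and 0.16 with scaling by library size alone. Kcnq1, the potassium channel gene that Kcnq1ot1 overlaps on the other strand, was at 0.852 ± 0.0464 CPM on normal chow and 0.695 ± 0.179 CPM on PS-MP chow (SD, n = 3). The strand setting of the counting is not given in the sources used here, so reads of the pair cannot be told apart where they overlap. The same holds for Gas5 and Zbtb37, for Meg3 and Gm26906, and for Malat1 and Gm37376, each pair on opposite strands. Mir22hg and Tlcd2 overlap on 1 strand, where no strand setting would part their reads. Cdkn1c, a growth inhibitor gene of the imprinted region of Kcnq1ot1, had a log2 fold change of 0.34 (SE 0.25, edgeR adjusted p = 0.990), and Phlda2 had 0 counts in every library.

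**Figure D3:**
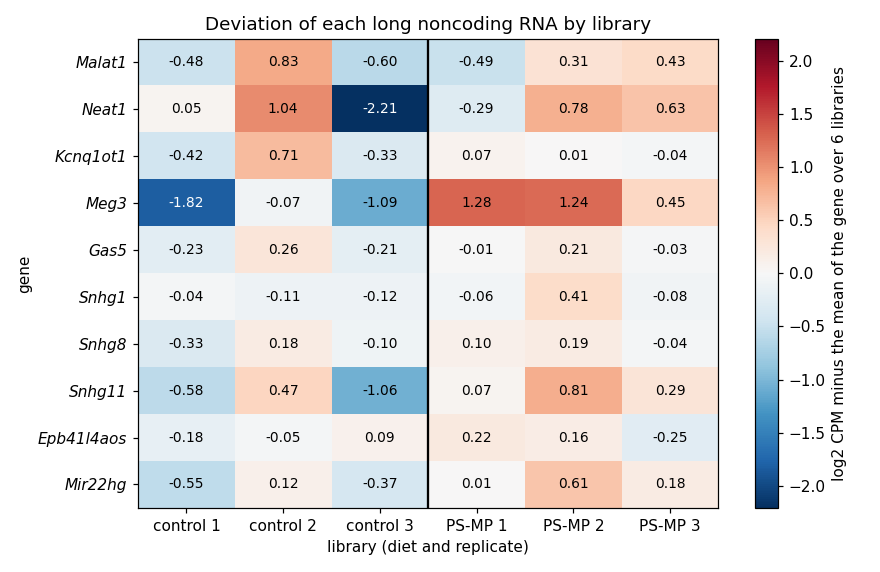
Log2 CPM of each gene minus its mean over 6 libraries (colour and printed value), with libraries as columns and genes as rows. Control replicate 2 is the highest control library for 8 of the 10 genes, and the values of Gas5, Snhg1, Snhg8 and Epb41l4aos stay between -0.33 and 0.41.

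The snoRNA hosts Gas5, Snhg1, Snhg8 and Epb41l4aos were the steadiest members. Gas5, named for its accumulation in growth-arrested cells, was at 48.6, 68.2 and 49.2 CPM on normal chow, against 56.7, 66.0 and 55.7 CPM on PS-MP chow. Snhg8, with a single snoRNA, was at 15.6, 22.0 and 18.2 CPM on normal chow, against 21.0, 22.2 and 18.9 CPM on PS-MP chow. Replicate 2 was the highest library of its diet for both genes, and the diets overlapped.

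Snhg1 was at 6.87, 6.54 and 6.51 CPM on normal chow, against 6.77, 9.42 and 6.69 CPM on PS-MP chow, so that PS-MP replicate 2 alone stood above the rest. Epb41l4aos, read from the strand opposite to Epb41l4a, was at 5.89, 6.45 and 7.09 CPM on normal chow, against 7.79, 7.44 and 5.62 CPM on PS-MP chow. The log2 fold changes of these 4 genes lay between 0.10 and 0.20 with SEs of 0.17 to 0.20 and an edgeR adjusted p of 1.0 for each. Their 95% intervals lay inside 2-fold (the widest reach was -0.37 for Epb41l4aos and 0.67 for Snhg1), as they did for 53.6% of all genes tested. Their within-diet SDs were 0.20 to 0.22, at percentiles 29.8 to 53.6 among genes of like level.

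Over the 6 libraries the centred log2 CPM of Gas5 and Snhg8 differed by a root mean square of 0.0840, the smallest of the 45 pairs of members. The other pairs among these 4 genes came to 0.165 to 0.219, about as much as Gas5 varied around its own mean (0.187). Zbtb37, a zinc finger gene that overlaps Gas5 on the other strand, was at 5.85 ± 2.07 CPM on normal chow and 9.67 ± 1.12 CPM on PS-MP chow (SD, n = 3), without overlap between libraries of the diets (log2 fold change 0.73, SE 0.28, edgeR adjusted p = 0.918). Slc3a2, the amino acid transporter subunit gene beside Snhg1, had a log2 fold change of -0.02 (SE 0.17).

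Snhg11 and Mir22hg were higher on average in PS-MP with overlapping libraries. Snhg11, best known from brain, was at 10.2, 21.0 and 7.27 CPM on normal chow, against 15.9, 26.6 and 18.5 CPM on PS-MP chow, where control replicate 2 exceeded 2 PS-MP libraries. Its log2 fold change was 0.67 (SE 0.41, interval -0.32 to 1.66, edgeR adjusted p = 0.969), and it was 1.22 without control replicate 2 and 0.39 without control replicate 3. Mir22hg was at 26.3, 41.8 and 29.9 CPM on normal chow, against 38.8, 58.9 and 43.8 CPM on PS-MP chow, so that control replicate 2 lay above PS-MP replicate 1 only. Its log2 fold change was 0.53 (SE 0.24, interval -0.03 to 1.09, edgeR adjusted p = 0.923). Tlcd2, a membrane lipid gene that overlaps Mir22hg on the same strand, was at 23.4 ± 11.7 CPM on normal chow and 12.8 ± 6.14 CPM on PS-MP chow (SD, n = 3; log2 fold change -0.87, SE 0.51, edgeR adjusted p = 0.958).

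Control replicate 2 was the highest control library for 8 of the 10 members, where it was so for 39.7% of all genes tested. PS-MP replicate 2 was the highest of its diet for 6 of the 10 members, where it was so for 37.0% of all genes. Control replicate 2 also had the 18S share of 11.2%. Without it, log2 fold changes were 0.67 for Malat1, 1.12 for Neat1, 0.38 for Kcnq1ot1, 2.51 for Meg3, 1.22 for Snhg11 and 0.75 for Mir22hg, with edgeR adjusted p-values of at least 0.461. The part of the 18S reads in these levels was not tested. With 18S and mitochondrial genes taken out before scaling, the log2 fold change of Malat1 was 0.06 and that of Meg3 1.91. TMM scaling already evens out such makeup, so this refit is no test of that part.

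**Figure D4:**
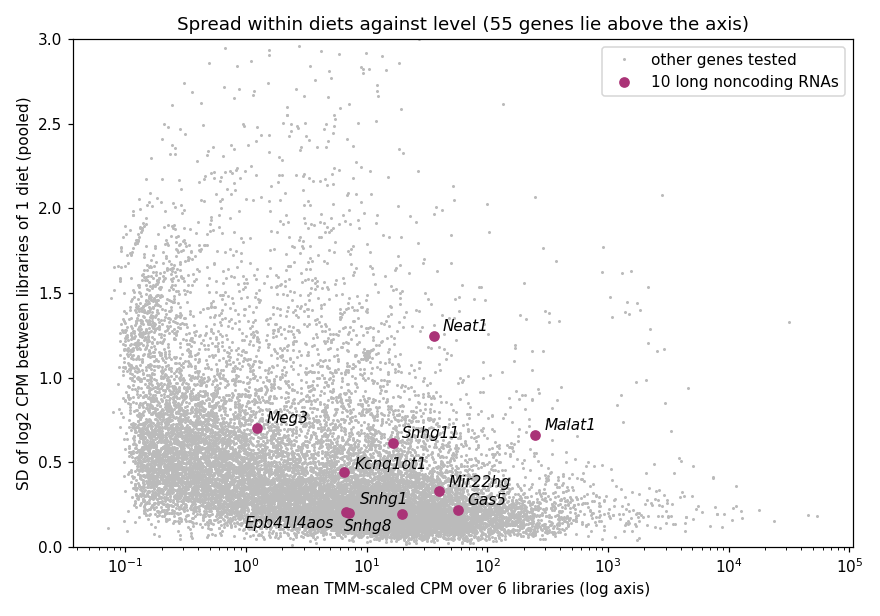
SD of log2 CPM between libraries of 1 diet, pooled over the diets (vertical axis), against mean CPM over 6 libraries (log axis) for the genes tested, with the 10 long noncoding RNAs marked; 55 genes lie above the vertical axis. Neat1 at 1.25 and Malat1 at 0.66 lie above most genes of their level, and Gas5, Snhg1, Snhg8 and Epb41l4aos lie at 0.20 to 0.22.

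The small RNAs inside most members had few counts of their own. The 8 snoRNAs of Gas5 found in the files had 8 or 9 counts per library in all, and Mir22 had 1 to 3 counts where its host had 1907 to 5204. The snoRNAs of Snhg1 had 19, 209 and 19 counts on normal chow, against 11, 8 and 9 on PS-MP chow. Control replicate 2 stood out here as it did for 18S. Snhg1 itself had 398 counts in that library, which had the smallest total. After scaling this was 6.54 CPM, against 6.51 to 9.42 CPM in the other libraries.

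Of 25 further hosts of small RNAs listed, 20 were tested. The log2 fold change was above zero for 17 of these, with a median of 0.35 against 0.02 for all genes (0.56 against 0.23 with library size alone), and 0 passed the adjusted threshold. At an unadjusted p under 0.05 there were 2, both higher, where 2.8% of all genes were higher at that level. The libraries did not overlap for 5, also all higher, where 6.24% of all genes were higher without overlap. These 5 were Rian, Snhg20, Snhg16, Snhg12 and Snhg15. Snhg20 was at 2.19, 1.77 and 1.39 CPM on normal chow, against 2.40, 3.53 and 4.16 CPM on PS-MP chow (log2 fold change 0.92, SE 0.29, edgeR adjusted p = 0.828). Snhg16 was at 1.53, 0.903 and 1.88 CPM on normal chow, against 2.60, 2.30 and 2.13 CPM on PS-MP chow (log2 fold change 0.70, SE 0.31, edgeR adjusted p = 0.923). Of the 5, Snhg12 and Snhg15 fell outside the naming rule and were named after their values were seen.

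**Figure D5:**
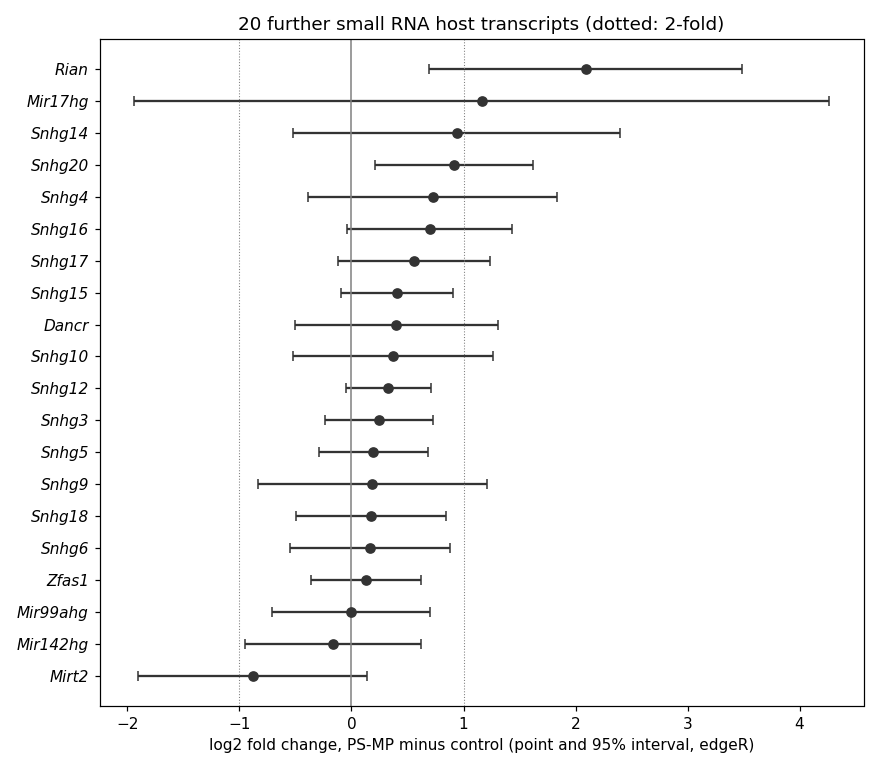
Log2 fold change (horizontal axis, PS-MP minus control, edgeR) with its 95% interval for 20 further host transcripts of small RNAs; dotted lines mark 2-fold. Points lie above zero for 17 of the 20 genes, and the intervals of Rian and Snhg20 lie wholly above zero.

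Of 28 other named long noncoding RNAs listed, 18 were tested, with 12 above zero. Their median log2 fold change was 0.15, and 0 were past the adjusted threshold. The 4 with an unadjusted p under 0.05 were all lower, where 2.58% of all genes were: Rmrp, Rpph1, Rn7sk and Bc1, short RNAs made by RNA polymerase III. Rmrp, the RNA of RNase MRP, was at 6.46, 36.7 and 3.55 CPM on normal chow, against 2.23, 0.951 and 0.806 CPM on PS-MP chow (log2 fold change -3.55, SE 0.98, edgeR adjusted p = 0.805; DESeq2 adjusted p = 0.00259). Rpph1, the RNA of RNase P, had a log2 fold change of -2.97 (SE 0.92, edgeR adjusted p = 0.806; DESeq2 adjusted p = 0.0178). Both were highest in control replicate 2, as was the 18S share, and the part of that share in them was not tested. Without that library the log2 fold changes were -1.91 for Rmrp and -1.26 for Rpph1. Bc1 was at 1.64, 3.19 and 3.77 CPM on normal chow, against 1.32, 1.37 and 1.69 CPM on PS-MP chow. It was highest in control replicate 3, and the diets overlapped (log2 fold change -0.97, SE 0.34, edgeR adjusted p = 0.889). Rn7sk, which holds back transcription elongation, was named after its values were seen.

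Of the 22 paraspeckle and speckle proteins, all tested, 13 were above zero (median log2 fold change 0.05, 0 past the adjusted threshold). Son, a scaffold of nuclear speckles, was at 72.7, 41.9 and 73.2 CPM on normal chow, against 29.9, 38.0 and 28.2 CPM on PS-MP chow, without overlap (log2 fold change -0.97, SE 0.25, edgeR adjusted p = 0.767). Taf15 had 0.67 (SE 0.33) and Smarca4 -0.31 (SE 0.20). Of the 14 snoRNA-binding and assembly proteins, 4 were above zero (median -0.05, 0 past the threshold), with -0.36 for the box C/D core protein Nop58, 0.57 for the pseudouridine synthase Dkc1 and -0.14 for Nop10.

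Of the 18 factors of nonsense-mediated decay and release, 9 were above zero (median -0.00099, 0 past the threshold). Smg1, the kinase of the decay factor UPF1, was at 0.578, 0.493 and 0.378 CPM on normal chow, against 0.813, 43.0 and 0.712 CPM on PS-MP chow, so its log2 fold change of 4.94 (SE 1.72, edgeR adjusted p = 0.869) was 0.66 without PS-MP replicate 2. Rnps1 had a log2 fold change of -0.54 (SE 0.25). Snhg1, Snhg8, Snhg11 and Mir22hg were also highest of all libraries in PS-MP replicate 2, and the share of all genes for this was not computed. Among the PS-MP libraries alone, replicate 2 was the highest for 6 of the 10 members and for 37.0% of all genes tested. A link of these levels to Smg1, high in that library alone, was not tested. Of the 14 genes of the imprinted network, 11 were tested and 5 were above zero (median -0.09, 0 past the threshold). H19, a maternally expressed RNA like Meg3, had 0.39 (SE 0.34) and Snrpn -0.22 (SE 0.18). Of the 21 genes beside the members, 17 were tested and 6 were above zero (median -0.09), with 0 past the adjusted threshold. These medians depend on the scaling: with library size alone, which put the median of all genes at 0.23, they were 0.16 for snoRNA-binding proteins, 0.21 for decay factors, 0.13 for the imprinted network and 0.12 for genes beside the members.

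Genes with the most similar pattern over the 6 libraries were found by the root mean square difference of centred log2 CPM among 14076 genes. Malat1 was nearest to Luc7l3, Kif11 and Ints6 (differences of 0.151, 0.156 and 0.157). Neat1 was nearest to ENSMUSG00000120010, Rab27a and Mgl2 (0.219, 0.222 and 0.260), and Gas5 to Hspa2, Zfp407 and Rbm48 (0.0355, 0.0366 and 0.0367). Small differences are reached more easily by genes that vary little, and these genes share libraries and depth with the members.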

How the data were processed

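Liver RNA was sequenced in 6 libraries, 3 per diet. The labels' protocols name a poly(A) bead module and a directional library kit. The deposited files hold raw read counts per gene as whole numbers, not normalised by the authors. The submitters' processing notes name bcl2fastq and GRCm39, and sources used here give neither aligner nor counting program, annotation or strand setting. Each file has 56674 rows and 55802 symbols, and 67 repeated symbols were summed. Totals were 68357478 to 112566641 counts per library.

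Counts were analysed in R 4.3.3. Genes passing filterByExpr (17662) were TMM-scaled and compared with the edgeR 4.0.16 quasi-likelihood test, with diet as the term and Benjamini-Hochberg adjustment over all genes. For single values, such as a ratio of counts, a two-sided exact permutation test over the 6 libraries was used. Log2 CPM used a prior count of 2. Alternatives were DESeq2 1.42.0, limma-voom (limma 3.58.1), other scalings and filters, a replicate block and leaving out each library. The fit was tested on simulated counts (17200 genes), where it called 37 of the 97 genes given a 4-fold change and 2 of the 96 given a 2-fold change.

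The members and lists were chosen with earlier results of these data known. Named genes were the members, the 3 genes of smallest p in each list, genes beside the members and the nearest patterns. Exon lengths and small RNA positions came from GENCODE M21 and sequences from RefSeq, both GRCm38, matched by symbol. Some genes that this rule gives are not reported here.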

Additional observations from a re-analysis of the deposited data

How the results depend on the processing

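Adjusted p-values stayed above 0.05 for all members under every alternative except DESeq2, which called Meg3 (adjusted p = 0.0367), so that 1 member was called in place of 0. Over 15 alternatives the direction held for Meg3, Gas5, Snhg1, Snhg8, Snhg11, Epb41l4aos and Mir22hg. Kcnq1ot1 reversed with library size only (0.16), limma-voom (0.058) and the replicate block (0.029). With a library left out, log2 fold changes ranged from -0.18 to 0.67 for Malat1, from -0.18 to 1.12 for Neat1, from -0.26 to 0.38 for Kcnq1ot1 and from -0.12 to 0.11 for Slc3a2, and the log2 ratio of Neat1 to Malat1 differed between diets by -0.085 (without control replicate 3) to 0.99 (0.58 with all libraries). Genes called over the whole table numbered 187 with DESeq2, 1 with limma-voom, 0 with the replicate block (945 at an unadjusted p under 0.05) and 0 to 4 with a library left out, against 2. The 4 came with control replicate 2 left out, the 0 with control replicate 3 left out, and 1 gene was called with PS-MP replicate 1 or 3 left out. Members called with a library left out numbered 0 in each case. Library size only moved the median of all genes to 0.23. It put list medians at 0.56 for other hosts, 0.26 for speckle proteins, 0.16 for snoRNP proteins, 0.21 for decay factors, 0.12 for genes beside the members and 0.13 for the imprinted network, and Nop10 at 0.067 and Slc3a2 at 0.18 (0.0062 with upper quartile scaling). With a library left out the median of the imprinted network ranged from -0.080 to 0.10 and that of decay factors from -0.14 to 0.0096. Why these values moved was not tested. Whether replicate numbers pair the samples could not be settled, since deviations were taken within only 3 libraries per diet. Those of same-numbered libraries correlated at 0.108, 0.139 and -0.128, and 2 of 3 control libraries matched their own number best. In the replicate block, Mir22hg had a log2 fold change of 0.54 and Snhg11 0.78 (adjusted p = 0.868 for both). Meg3 had the lowest counts of the members, 18 to 198 per library.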
